A study of Mus musculus with 2 samples.

Results

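The potassium channel genes of the mouse were examined for open chromatin in naive CD8 T cells. They were taken as every protein-coding gene of the GENCODE M21 annotation (mm10 assembly) whose symbol starts with Kcn, which gave 94 of 21827 genes. Of these, 77 encode pore-forming subunits (40 voltage-gated, 15 inward rectifier, 14 two-pore domain and 8 calcium- or sodium-activated) and 17 encode auxiliary subunits or regulators. A hand-made classification by the tissue in which each channel is best known placed 2 genes as T cell channels, 29 as neuronal, 13 as cardiac and 50 as other.

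Chromatin accessibility had been measured by DNase-seq, in which DNase I cuts DNA that is not covered by nucleosomes and the cut ends are sequenced. The series holds 2 libraries of 1 group, biological replicates 2 and 3, each with technical replicate number 1. Both were made from primary, resting, naive alpha-beta T cells of the CD8 lineage from virgin adult male mice of strain B6CASTF1/J, aged 2 months. This strain is the first-generation cross of C57BL/6J and CAST/EiJ, so each cell carries 1 genome of each parent, and the labels name no treatment and no genetic manipulation. The labels give both libraries the same donor entry and different biosample entries, so they do not settle whether the libraries came from separate animals. There was no other cell type or condition to compare with, and no RNA was measured: an open promoter is not a measurement of expression. In a bulk assay, fewer cells with an open site and less opening per cell cannot be told apart.

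Potassium channels let potassium ions leave the cell and so keep the inside of the membrane negative. In T cells this negative potential drives calcium entry through store-operated calcium channels after the antigen receptor is engaged. The best-known T cell channels are Kv1.3, encoded by Kcna3 and opened by depolarization, and KCa3.1, encoded by Kcnn4 and opened by calcium through bound calmodulin. In neurons and heart muscle, other members of the same families repolarize the action potential and set the resting potential.

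The libraries differed in depth of calling. The stricter peak list held 38223 peaks in replicate 2 and 17061 in replicate 3, and the footprint lists (short protected stretches inside open sites) held 146244 and 29967 intervals. The signal that the authors give each peak has no stated scaling. Within 0.05 of a step, 38222 of 38223 values in replicate 2 and all 17061 in replicate 3 were whole multiples of 1 step per library, and that step was 6.05 times larger in replicate 3 (0.0452) than in replicate 2 (0.00746). Each signal is therefore also given as its percentile among the stricter peaks of its own library that overlap a promoter, a promoter being 1000 bp either side of the start of a protein-coding transcript. A gene's strongest peak is thus ranked among all promoter peaks, which include weaker ones of the same gene, and not among genes. T cell markers had a stricter promoter peak at 6 of 6 genes in replicate 2 but at 1 of 6 (Cd28) in replicate 3, where Cd3d, Cd3e, Cd3g, Cd247 and Lck had none. CD8 markers had one at 2 of 3 genes in each library (Cd8b1 and Runx3, not Cd8a), and the CD4, B cell, natural killer, erythroid and heart muscle markers had none in either. Among neuron markers, Syp and Tubb3 of 4 had one in replicate 2 and Syp in replicate 3, and 1 of 5 myeloid markers (Itgam) had one in replicate 2. A promoter without a stricter peak is thus not shown to be closed, least of all in replicate 3.

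The open promoter stretches of the T cell channel genes and of Kcnc1 and Kcnj11, the neuronal and the cardiac gene with a promoter peak in both libraries, are printed here, to show the sites on which the contrast between the classes rests. Each is read 5′ to 3′ along the gene from the GRCm38.p6 reference (the C57BL/6J genome, so the CAST/EiJ alleles are not shown), with bases inside a replicate 2 footprint in capitals and transcribed bases left out. The Kcnn4 stretch is the first 300 of the 320 bases of its region, and leaves out 1 of the 5 footprints there.
Kcna3 promoter, chr3:107035921-107036168, + strand: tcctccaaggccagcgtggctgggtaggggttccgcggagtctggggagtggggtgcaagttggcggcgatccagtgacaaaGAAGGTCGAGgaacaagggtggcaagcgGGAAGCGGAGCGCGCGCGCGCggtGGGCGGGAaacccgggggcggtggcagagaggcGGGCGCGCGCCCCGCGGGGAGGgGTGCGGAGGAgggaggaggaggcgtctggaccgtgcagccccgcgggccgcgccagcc
Kcnn4 promoter, chr7:24369821-24370120, + strand: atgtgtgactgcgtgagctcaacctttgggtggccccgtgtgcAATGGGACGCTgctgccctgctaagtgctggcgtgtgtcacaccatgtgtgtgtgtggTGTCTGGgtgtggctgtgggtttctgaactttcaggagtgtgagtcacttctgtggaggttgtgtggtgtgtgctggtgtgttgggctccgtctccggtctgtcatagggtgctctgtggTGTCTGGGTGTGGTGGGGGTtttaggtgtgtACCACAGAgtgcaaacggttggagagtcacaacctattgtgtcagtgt
Kcnc1 promoter, chr7:46396241-46396480, + strand: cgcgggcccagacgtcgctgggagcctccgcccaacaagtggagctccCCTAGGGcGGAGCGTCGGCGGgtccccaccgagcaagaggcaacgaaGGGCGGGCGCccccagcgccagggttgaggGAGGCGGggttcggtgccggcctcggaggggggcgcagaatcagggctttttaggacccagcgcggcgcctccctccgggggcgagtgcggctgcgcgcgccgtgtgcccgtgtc
Kcnj11 promoter, chr7:46100765-46100920, - strand: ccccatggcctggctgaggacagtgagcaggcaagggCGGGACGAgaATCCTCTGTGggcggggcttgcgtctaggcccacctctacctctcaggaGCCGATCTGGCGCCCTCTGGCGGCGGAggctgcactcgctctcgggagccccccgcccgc
The Kcna3 and Kcnc1 stretches are GC-rich, with 74.2% and 75% G or C and 30 CpG dinucleotides in each (248 and 240 bases). The Kcnj11 stretch has 71.2% and 12 CpG dinucleotides in 156 bases. The Kcnn4 stretch has 55.7% and 7 CpG dinucleotides in 300 bases, with runs of alternating T and G.

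The promoters of potassium channel genes were seldom open. In both libraries, 9 of the 94 genes had a stricter peak at the promoter (9.57%), against 40.9% of all protein-coding genes. Another 14 genes (14.9%, against 9.63% of all genes) had one in replicate 2 alone, 0 had one in replicate 3 alone, and 71 (75.5%, against 49.5%) had none. In replicate 2, the library with more peaks, 23 genes had a promoter peak (24.5%, against 50.5% of all genes), and in replicate 3 it was 9 (9.57%, against 40.9%). Where a promoter was open, its signal was low. The median promoter signal over genes with a peak was 0.858 for the 23 channel genes and 3.75 for all 11019 genes in replicate 2, and 1.99 for the 9 channel genes and 4.65 for all 8924 genes in replicate 3. Only Kcnab2, Kcnc1 and Kcnn4 exceeded the median promoter peak of replicate 2 (2.08), and only Kcnab2 that of replicate 3 (3.93). Those medians count every promoter peak, including weaker ones of the same gene. Against the median over genes in replicate 2 (3.75), Kcnc1 (2.81) lay below, and Kcnn4 (4.15) and Kcnab2 (9.30) above.

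**Figure D1:**
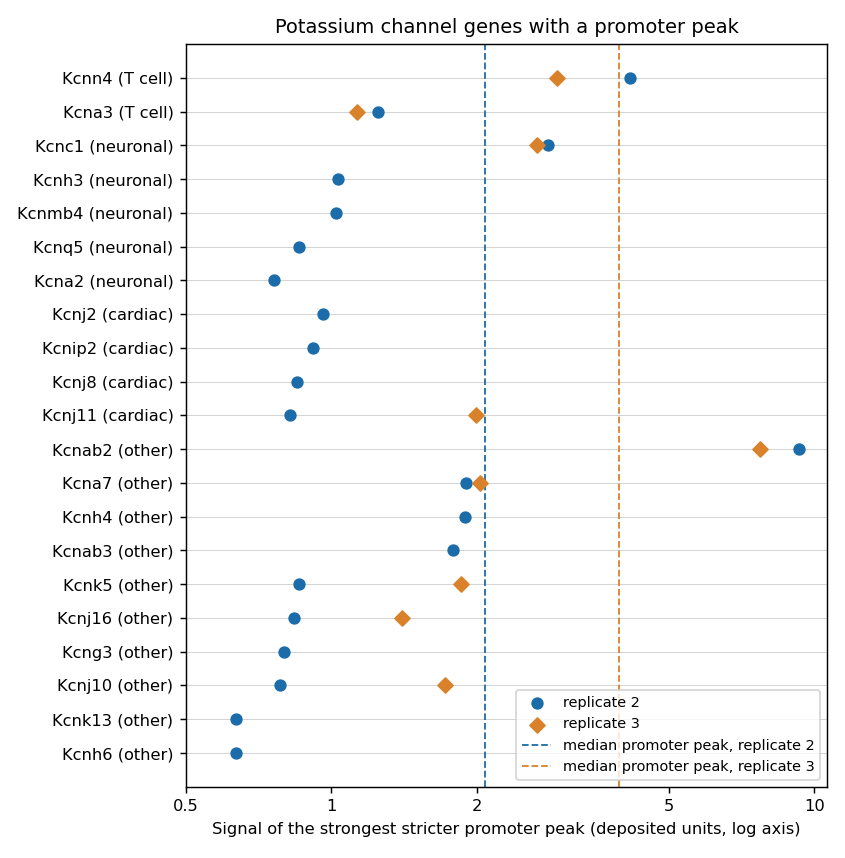
Signal of the strongest stricter promoter peak of 21 of the 23 potassium channel genes that had one (log axis), in replicate 2 (circles) and replicate 3 (diamonds), with the median promoter peak of each library as a dashed line and the class in brackets. All but Kcnab2, Kcnn4 and Kcnc1 lie below the replicate 2 median of 2.08, and 12 of the plotted genes have no replicate 3 point.

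Both T cell channel genes were among the 9. Kcnn4 (ENSMUSG00000054342.8, chr7:24370263-24386690, + strand) had a promoter signal of 4.15 in replicate 2, percentile 71.8 of promoter peaks there, and 2.94 in replicate 3, percentile 34.6. Its promoter region in both libraries lay at chr7:24369821-24370140, centred at -282 bp from the start site, in intergenic sequence. The replicate 3 peak was the 60 bp from 24369961 to 24370020 inside it. Kcna3 (ENSMUSG00000047959.4, chr3:107036169-107038070, + strand) is a short gene of 1.90 kb. It had 1.25 in replicate 2 (percentile 35.8) and 1.13 in replicate 3 (percentile 3.42), so its promoter was among the weakest that replicate 3 lists. That region lay at chr3:107035921-107036200, centred at -108 bp and covering the start site in replicate 2. The lowest false discovery rate that the authors' deposited cut-rate file lists within the promoter was 1.94e-12 and 0.000216 for Kcnn4, and 1.97e-10 and 9.78e-05 for Kcna3, in replicates 2 and 3. Values under 0.001 follow from the stricter calls, since every stricter peak met that limit, and add no support to them. With replicate 2 cut to its 17061 strongest peaks, as many as replicate 3 has, Kcnn4 kept its call and Kcna3 did not.

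Around Kcnn4, 2 further regions were open. The strongest of the locus was intergenic, at chr7:24364881-24365060, centred at -5292 bp, with 5.20 in replicate 2 and 4.11 in replicate 3. It is shown because it exceeded the promoter in both libraries, again with replicate 2 footprints in capitals.
Kcnn4 upstream region, chr7:24364881-24365060, + strand: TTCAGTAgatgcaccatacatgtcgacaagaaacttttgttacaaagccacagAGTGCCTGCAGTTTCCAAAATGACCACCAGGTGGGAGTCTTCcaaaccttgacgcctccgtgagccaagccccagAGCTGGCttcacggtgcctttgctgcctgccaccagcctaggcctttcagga
The longest run of capitals was the only one of its 3 replicate 2 footprints to overlap the replicate 3 footprint there. The third region, at chr7:24384981-24385140 in an untranslated exon near the end of the gene, had 3.21 in replicate 2 and no stricter peak in replicate 3, where the authors' permissive list (false discovery rate up to 0.05) gave 3.70. It held a CTCF motif match that overlapped footprints of both libraries. Around Kcna3, a region inside the transcript at chr3:107036321-107036440 had 0.791 in replicate 2 and 0.903 on the permissive list of replicate 3. Another, at chr3:107038762-107038917 and 2671 bp from the start, had 0.940 in replicate 2 alone. The neighbouring Kv1 genes on the same chromosome were weaker: Kcna2, a neuronal channel, had promoter peaks of 0.761 and 0.724 in replicate 2 alone, and Kcna10 had none.

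Among the 29 neuronal genes, Kcnc1, which encodes the fast Kv3.1 channel, had a promoter peak in both libraries. The neuronal label of Kcnc1 is a hand choice and does not mean that its channel is confined to neurons. The neuronal count for both libraries rests on this gene alone. The Kcnc1 signal was 2.81 in replicate 2 (percentile 59.0) and 2.67 in replicate 3 (percentile 29.7). These came from separate regions: the one shared by both libraries, at chr7:46396241-46396480, had 1.81 and 2.67, and the stronger one, downstream at chr7:46396721-46396940, had 2.81 in replicate 2 and 2.17 on the permissive list of replicate 3. Kcnc1 therefore ranked above Kcna3 in both libraries and below Kcnn4. Replicate 2 alone had a promoter peak at 6 neuronal genes, which included Kcna2 (0.761), Kcnh3 (1.03), Kcnmb4 (1.02) and Kcnq5 (0.858). The other 22 had none in either library. They included Kcnq3, a subunit of the M-current that restrains neuronal firing, and Kcnd2, which carries transient outward current in dendrites. The count was 1 of 29 for peaks in both libraries and became 4 of 29 with the permissive list, against 45.5% of all genes.

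Among the 13 cardiac genes, Kcnj11, the Kir6.2 pore of the ATP-sensitive channel, had a promoter peak in both libraries. The cardiac label of Kcnj11 is a hand choice, since its channel is not confined to heart muscle. The cardiac count for both libraries rests on this gene alone. It had 0.821 in replicate 2 (percentile 22.2) and 1.99 in replicate 3 (percentile 18.1), in a region centred at -604 bp from the start used. That region overlaps the 5′ end of the annotated gene, at chr7:46100764, which is not the start used here. With a promoter of 500 bp either side of the start used, Kcnj11 lost its call and the cardiac count was 0. Replicate 2 alone had a promoter peak at Kcnip2 (0.918), a Kv4 partner, Kcnj2 (0.962), the Kir2.1 inward rectifier, and Kcnj8 (0.851), the Kir6.1 pore. The other 9 had none: Kcna5, Kcnd3, Kcne1, Kcnh2, Kcnj12, Kcnj3, Kcnj5, Kcnk3 and Kcnq1, which include the pores of the delayed rectifier currents IKr (Kcnh2) and IKs (Kcnq1). Side by side, promoter peaks in both libraries numbered 2 of 2 T cell, 1 of 29 neuronal, 1 of 13 cardiac and 5 of 50 other genes, against 40.9% of all genes. These counts use starts of the basic GENCODE M21 annotation. A protein-coding Kcnip2 start found only in the fuller annotation lies within 1000 bp of a region with 2.80 in replicate 2 and 4.52 in replicate 3. With 2 genes in the T cell class and the genes named for their known roles, the difference between classes was not tested.

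The 5 remaining genes open in both libraries came from the class of other channels. Kcnab2, the Kvβ2 subunit that binds Kv1 channels and is described in lymphocytes, had the highest signal of all members: 9.30 in replicate 2 (percentile 95.3) and 7.72 in replicate 3 (percentile 88.4). That peak also overlaps the promoter of Nphp4, the neighbouring gene. A second Kcnab2 promoter, at chr4:152448661-152448880, had 2.13 and 1.45 and is shared with no other gene. Kcnk5, the acid-sensitive two-pore channel TASK-2, had 0.858 and 1.85 (percentiles 23.8 and 15.8). Kcna7, a Kv1 channel, had 1.90 and 2.03 (percentiles 47.5 and 18.8). The glial and epithelial inward rectifiers Kcnj10 (Kir4.1) and Kcnj16 (Kir5.1), whose products form channels together, had 0.783 and 1.72 (percentiles 20.4 and 13.5) and 0.836 and 1.40 (percentiles 22.8 and 7.92). The signal was higher in replicate 3 at 5 of the 9 genes (Kcna7, Kcnj10, Kcnj11, Kcnj16 and Kcnk5) although its percentile was lower there at all 9. The median promoter peak was also higher in replicate 3 (3.93, against 2.08). Neither count was computed over all genes, so neither is shown to be a trait of channel genes. A hand-made list, which may be incomplete, named 5 further channels described in T cells beside Kcna3 and Kcnn4. Of these 5, Kcnab2 and Kcnk5 had a promoter peak in both libraries, and Kcnk3 (TASK-1), Kcnk9 (TASK-3) and Kcnk18 (TRESK) had none in either.

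By family, the genes open at the promoter in both libraries were 3 of 40 voltage-gated genes (Kcna3, Kcna7, Kcnc1), 3 of 15 inward rectifiers (Kcnj10, Kcnj11, Kcnj16), 1 of 14 two-pore genes (Kcnk5), 1 of 8 calcium- or sodium-activated genes (Kcnn4) and 1 of 17 auxiliary genes (Kcnab2). The share of all genes was 40.9%. None of the 3 Kcnd genes (Kv4 pores), 3 Kcns genes (silent Kv subunits) or 5 Kcne genes (small single-pass partners) had a promoter peak in replicate 2 or in replicate 3. Of all genes, 49.5% had none in either library. Among the 14 genes with a peak in replicate 2 alone, 6 had a permissive peak in replicate 3, including Kcnab3 (1.85), Kcnj2 (0.949), Kcnk13 (1.17), Kcnmb4 (1.08) and Kcnq5 (0.994). The matching share over all genes was not computed, so whether 6 of 14 is unusual is not known. The permissive lists gave 15 genes in both libraries (16%, against 45.5%).

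Promoter CpG content was compared next. CpG-rich promoters are, as background, often open in most cell types. The median observed-to-expected CpG ratio of the promoter sequence was 0.478 for the channel genes and 0.460 for all genes, and GC content was 55.2% and 50.9%. All genes were split into equal parts at CpG ratios of 0.295 and 0.583. In the high part, 4 of 26 channel genes (15.4%) had a peak in both libraries, against 73.4% of all genes. In the middle part it was 3 of 48 (6.25%) against 46.2%, and in the low part 2 of 20 (10%) against 2.97%. In replicate 2 the corresponding values were 10 of 26 (38.5%) against 83.1%, 11 of 48 (22.9%) against 59.9%, and 2 of 20 (10%) against 8.42%. Replicate 3 had the same member counts as both libraries together, against 73.5%, 46.2% and 2.98% of all genes. The 4 CpG-rich genes open in both libraries were Kcna3, Kcna7, Kcnc1 and Kcnk5, and the 2 CpG-poor ones were Kcnn4 (CpG ratio 0.193) and Kcnj16 (0.272). The T cell channels thus lie at opposite ends, with 0.781 for Kcna3. At 16 of the 26 CpG-rich channel genes neither library had a stricter peak at the promoter. The matching share of all CpG-rich genes was not computed. Of the 16, 8 were neuronal, near the neuronal share of all CpG-rich channel genes (14 of 26). The 16 included the neuronal genes Kcna1, Kcnd2, Kcnq3, Kcnn2 and Kcnk9.

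**Figure D2:**
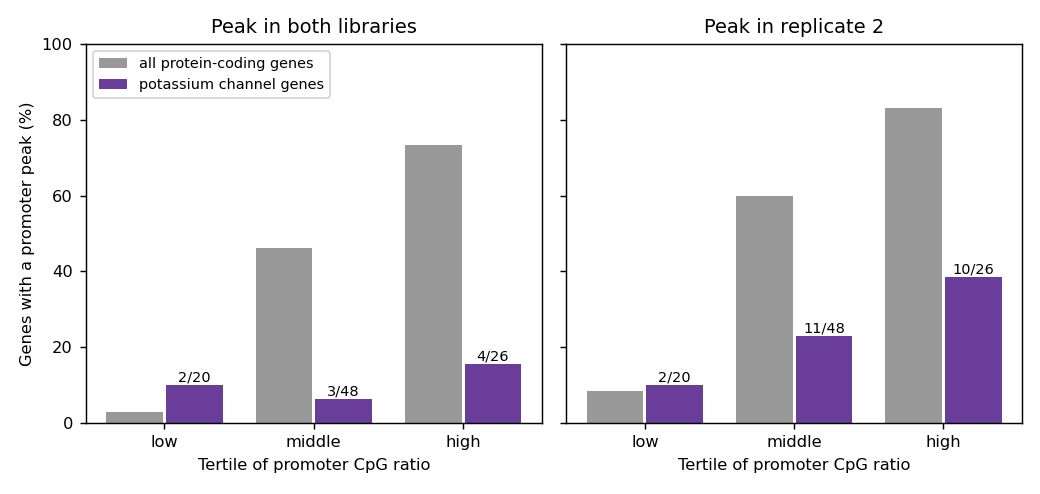
Share of genes with a stricter promoter peak in both libraries (left) and in replicate 2 (right), for all protein-coding genes (grey) and potassium channel genes (purple, with counts), by tertile of promoter CpG ratio. In the high tertile 15.4% of channel genes and 73.4% of all genes had a peak in both libraries, while in the low tertile the shares were 10% and 2.97%.

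Footprints were likewise few at channel promoters. A promoter footprint was found at 26 channel genes in replicate 2 (27.7%, against 52.8% of all genes) and at 6 in replicate 3 (6.38%, against 38.3%), and the same 6 had one in both. These were Kcnab2 (25 footprints in replicate 2 and 8 in replicate 3), Kcnc1 (10 and 3), Kcnab3 (5 and 1), Kcna7 (4 and 1), Kcnk5 (4 and 2) and Kcnj11 (3 and 2). Kcna3 had 9 promoter footprints in replicate 2 and Kcnn4 had 5, and neither had any in replicate 3. Over all channel promoters, 12 of the 146 replicate 2 footprints overlapped one of the 17 in replicate 3 (8.22%), against 17.8% of the 71963 replicate 2 footprints in promoters of all genes. Replicate 3 listed 11.6% as many promoter footprints as replicate 2 at channel genes and 29.7% as many at all genes.

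The promoter windows were searched on both strands for the letters of 8 factor motifs, with each start site giving 1 window, so windows of 1 gene can overlap. Only exact letters counted, so a window without a match can still hold a shorter or altered form of a site. The printed Kcnn4 promoter, for example, holds TGTGGT, the first letters of the RUNX motif. The ETS letters CCGGAAGT were found in 1 of 201 channel windows (0.498%, at Kcnd3), against 8.68% of 41433 windows of all genes. The shares were 3.98% against 11% for RUNX (TGTGGTTT), 13.9% against 23.6% for TCF/LEF (ATCAAAG) and 2.99% against 10.1% for NRF1 (GCGCA and GCGC with 1 free base between). They were 1.49% against 3.96% for CREB/ATF (TGACGTCA) and 12.4% against 12.8% for CTCF (CCA, AG and GGC with 2 free bases between each). KLF/SP letters (GGGGCGG) were in 62.2% of channel windows against 51.6%, with 79.1% for neuronal and 78.6% for cardiac genes. All 4 windows of Kcna3 and Kcnn4, 3 of them from Kcnn4, held these letters and none of the other 7. The printed Kcnn4 promoter stretch held no KLF/SP match. Letters of REST (AGCACC and GGACAG with 2 free bases between), a repressor of neuronal genes outside the nervous system, were in 6 channel windows (2.99%, from Kcnh4, Kcnk12 and Kcnt1) against 0.294% of all windows. Kcnh4 had a promoter peak of 1.89 in replicate 2 alone, which did not cover the match, and the other genes had none. These 3 and Kcnd3 are named for their matches, after these were seen, and windows were not matched on base composition.

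The locus of each gene, its body with 10 kb either side, was examined next. Channel loci held 172 open regions, of which 63 were in both libraries, 108 in replicate 2 alone and 1 in replicate 3 alone. A region in both libraries was present in 36 loci (38.3%, against 56.3% of all genes). Of the 63, 10 lay at the gene's own promoters, 22 at promoters of other protein-coding genes and 31 at neither, here called distal. Genome-wide there were 38248 regions. Of these, 9469 were in both libraries at promoters of protein-coding genes, and 6456 were in both libraries and distal. No share over all loci was computed for the split between own and other promoters, nor for the next count. At 10 genes all regions in both libraries belonged to other genes' promoters: in the Kcnk4 locus, the promoter of Esrra had 16.8 and 14.4, and in that of Kcnj14, the promoter of Cyth2 had 12.7 and 10.9. Of the channel loci, 20 had a distal region in both libraries (21.3%, against 21.3% of all genes) and 50 had one in replicate 2 (53.2%, against 43.3%). Channel genes are long (median 30.8 kb, against 17.4 kb), and per megabase of locus there were 2.52 distal regions in both libraries, against 4.13 for all genes, and 8.63 in replicate 2, against 13.5. Within parts of equal gene number by length, the shares with a distal region were 8.7% against 13.2% for genes under 9.19 kb, 29.2% against 22% up to 31.8 kb and 23.4% against 28.7% above. The loci of 31 channel genes (33%, against 32.5% of all genes) held no stricter region in either library, a share near that of all genes. They included Kcna1, Kcna4, Kcna5, Kcnb2, Kcnc2, Kcnd2, Kcnn2 and all 3 Kcns genes, and 3 of the 31 had a permissive promoter peak in 1 library (Kcnf1, Kcng2 and Kcnk7).

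**Figure D3:**
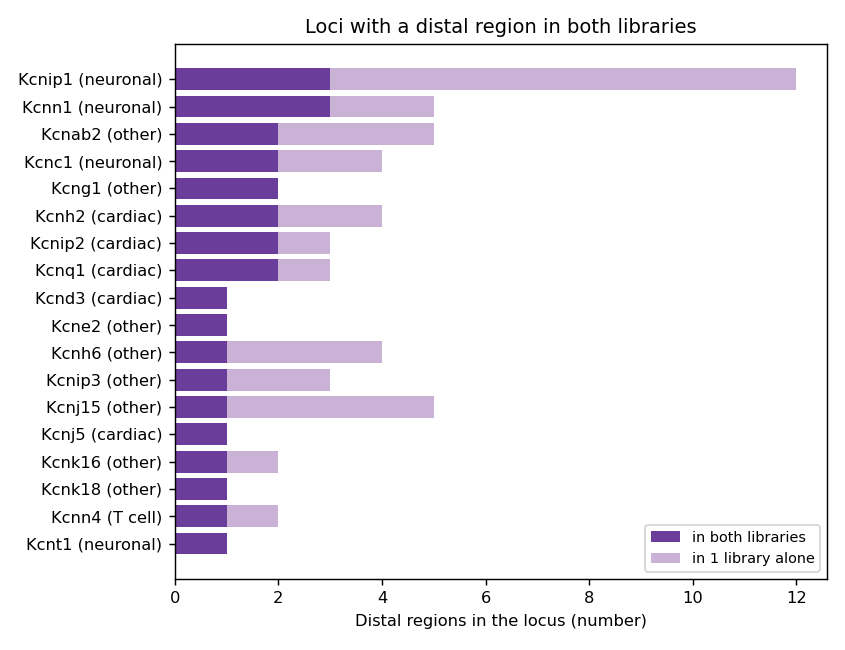
Number of distal regions in 18 of the 20 potassium channel loci with at least 1 in both libraries, split into regions in both libraries (dark) and in 1 library alone (light). Kcnip1 and Kcnn1 have 3 regions in both libraries, and Kcnn4 is the only T cell channel shown.

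The neuronal genes Kcnn1 and Kcnip1 had the most distal regions in both libraries, 3 each, while neither had a promoter peak. Kcnn1 encodes SK1, a small-conductance calcium-activated channel related to Kcnn4. It held the 2 strongest distal regions of any channel locus in each library. At chr8:70865501-70865960, centred at -2473 bp, the signal was 11.8 in replicate 2 and 10.9 in replicate 3. An intronic region at chr8:70844621-70844820 had 5.79 and 7.05, and an intergenic one at chr8:70841141-70841340 had 4.01 and 4.29. Kcnip1, a long gene for a calcium-binding Kv4 partner, had 12 distal regions, and its 3 in both libraries were weaker, with 1.09 to 1.68 in replicate 2 and 1.36 to 2.21 in replicate 3.

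A further 7 loci had 2 distal regions in both libraries, and 6 of them are described. Kcnc1 had 2.63 and 2.85 at chr7:46393221-46393420, and 2.35 and 2.71 in an intron at chr7:46422901-46423080. Kcnh2 had 2.80 and 4.02 in an intron and 2.45 and 2.67 upstream. Kcnip2 had 2.80 and 4.52, and 2.82 and 4.65 at -1170 bp, just outside its promoter window. The first of these Kcnip2 regions lies within 1000 bp of a protein-coding Kcnip2 start of the fuller annotation, which the basic annotation used for promoters leaves out. Kcnq1 had 1.11 and 1.72, and at chr7:143296501-143296820, 3.73 and 3.30. The latter lies within 1000 bp of the start of Kcnq1ot1, the imprinted antisense RNA that runs through the Kcnq1 gene, which the protein-coding promoter set leaves out. The Kcng1 regions, of a silent Kv subunit, had 3.24 and 3.70, and 1.31 and 1.94. Kcnab2 had 1.62 and 2.08, and 1.22 and 2.35. Kcnd3, first by alphabet of the loci with 1, had 2.13 and 2.30. Over all 31 distal regions, 17 were intronic, 13 intergenic and 1 in an untranslated exon, and 4 lay within 1000 bp of any annotated transcript start of the fuller annotation.

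**Figure D4:**
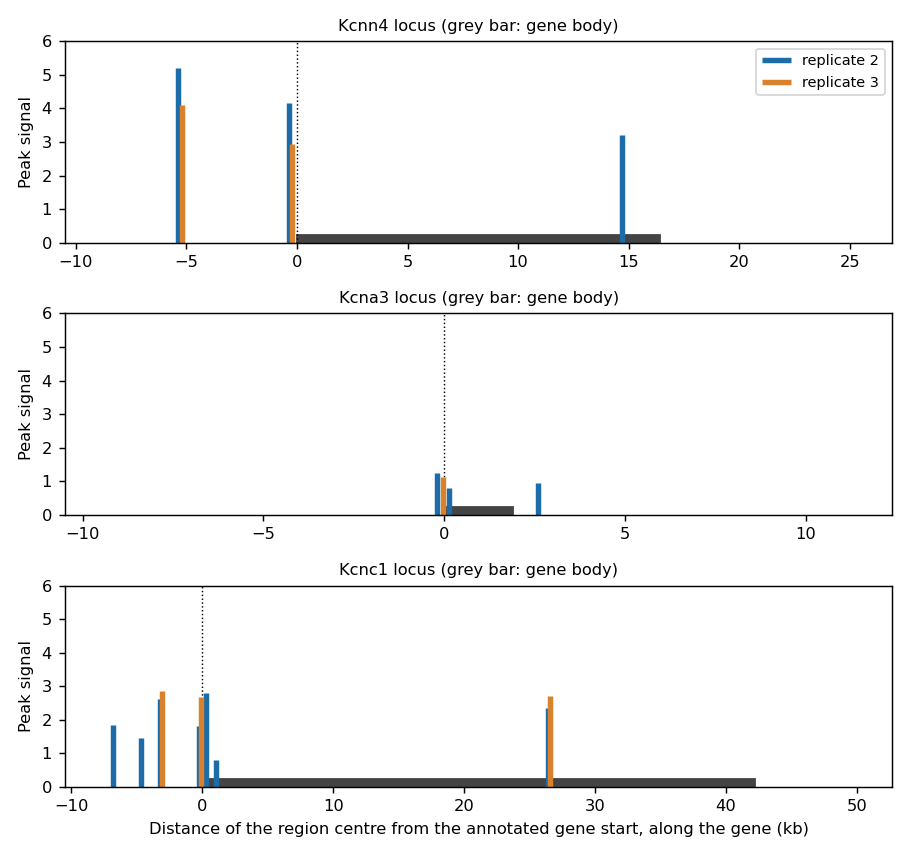
Peak signal of every open region in the Kcnn4, Kcna3 and Kcnc1 loci by distance from the annotated gene start (kb), in replicate 2 (blue) and replicate 3 (orange). The region upstream of Kcnn4 reaches 5.20 and 4.11, above its promoter at 4.15 and 2.94, whereas no region around Kcna3 exceeds 1.25.

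CTCF letters were common in the distal regions. CTCF is the zinc-finger protein that, with cohesin, anchors chromatin loops. Its letters, on either strand, were in 12 of the 31 distal regions in both libraries (38.7%), against 37.1% of 6456 such regions genome-wide, so the share was near the background. Among distal regions in replicate 2 alone they were in 28 of 74 (37.8%), against 21.6% of 15234. The 12 regions, in 10 loci, held 13 matches. All 13 overlapped a replicate 2 footprint and 5 of them also a replicate 3 footprint. The 5 are printed, with the matching letters in capitals and read along the strand of the match, as sites that both libraries list as protected. Another such site, in the Kcnn4 region with a stricter peak in replicate 2 alone, is printed with them. It is among 43 matches listed by locus in distal regions of channel loci, where 1 match lies in more than 1 locus and is counted in each.
Kcnn1 intron, chr8:70844704-70844727, + strand: gtgtgaCCAGCAGGGGGCgccaga
Kcng1 intergenic, chr2:168250432-168250455, + strand: aaactaCCAGCAGGTGGCagtaga
Kcnh6 intron, chr11:106026937-106026960, - strand: acgctaCCAGGAGGTGGCgcccac
Kcnk18 intergenic, chr19:59239626-59239649, + strand: aaatggCCACCAGGTGGCgcgcca
Kcnk18 intergenic, chr19:59239670-59239693, + strand: ccagggCCAGCAGGTGGCgcattc
Kcnn4 untranslated exon, chr7:24385082-24385105, - strand: aggtgtCCACCAGGGGGCagcacc
Kcnh6 and Kcnk18 were singled out after their values were seen. The Kcnk18 matches lie in the same region, which had 3.58 and 4.16, and the Kcnh6 region had 1.92 and 3.97. The open upstream region of Kcnn4 printed above held none of the 8 motifs in exact letters. Its longest footprint, however, holds the CTCF letters with only the last letter changed. Such altered forms were not counted in any region, and whether CTCF binds there was not tested.

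REST letters were found 9 times in channel loci, and 1 match lay in an open region. That match was at chr5:24357613-24357626, -6009 bp from the start of Kcnh2. Its region had 1.37 in replicate 2, 1 footprint over the match in that library, and no peak, stricter or permissive, in replicate 3. The matches in the promoter windows of Kcnk12 and Kcnt1 had no peak and no footprint over them in either library. These are shown with the motif in capitals and 6 bases either side.
Kcnh2 upstream, motif at chr5:24357613-24357626, - strand: ggtttcAGCACCTCGGACAGaggcag
Kcnk12 promoter, motif at chr17:87798587-87798600, + strand: ggcgtcAGCACCGCGGACAGcgcatc
Kcnt1 promoter, motif at chr2:25864076-25864089, - strand: ggactcAGCACCGCGGACAGctccgc
Across all stricter regions, 28 of 38248 (0.0732%) held the REST letters, against 1 of 172 in channel loci (0.581%).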

How the data were processed

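DNase-seq peaks, footprints and cut-rate false discovery rates of 2 libraries (biological replicates 2 and 3 of 1 group) were used as deposited. The authors called each file from that library's own alignments to mm10, per the notes deposited with it; which aligner and callers were used is not given in the sources. Column 7 of each deposited peak list is a signal of unstated scaling. In the deposited cut-rate files, values are q-values (false discovery rates), listed up to 0.05, and they separated a stricter list (at most 0.001 in every peak) from a permissive one (at most 0.05). Deposited footprints carry 1 constant in place of a score, so only their positions were used. Peaks overlapping by 1 bp were merged into regions, and a region was in both libraries when it held a peak of each. Promoters were 1000 bp either side of starts of protein-coding transcripts in the GENCODE M21 basic annotation, and 84 genes without such a start were left out. Sequence came from RefSeq's GRCm38.p6 assembly.

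Genes were named by rule: Kcna3 and Kcnn4, up to 15 open in both libraries by mean percentile, 10 loci by number of distal regions in both libraries, 5 other channels described in T cells, and neuronal and cardiac genes open in replicate 2 alone. A few genes that these rules name are not reported here, and remain in the counts. Members, classes, lists and motifs were chosen with earlier results of these data known. No test was made, since there is 1 group and the members were chosen by name; shares are set beside all 21827 genes. Alternatives covered the peak list, its length, window, overlap, flank and each library alone. Counts were checked on simulated peaks. Analyses used Python 3.11.15, numpy 2.4.6, pandas 2.3.3 and pysam 0.24.0, and figures matplotlib 3.10.9.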

Additional observations from a re-analysis of the deposited data

How the results depend on the processing

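The count of channel genes open at the promoter in both libraries was 9 and stayed at 8 to 10 with promoters of 500 or 2000 bp either side, with 50% of the peak inside the promoter, and without peaks shared with other genes' promoters. It was 15 with the permissive list and 4 with the 17061 strongest peaks of each library (Kcna7, Kcnab2, Kcnc1 and Kcnn4). Leaving out 1 library gave 9 to 23, the higher value without replicate 3, whose shorter list sets the count. In every one of these settings the share of channel genes was below that of all genes. The T cell count was 2 except with the strongest peaks, where it was 1. The neuronal count was 4 with the permissive list and 1 to 7 when leaving out 1 library. The cardiac count was 2 with the permissive list, 0 with the strongest peaks, 0 with 500 bp, 2 with 2000 bp, and 1 to 4 when leaving out 1 library. Regions in both libraries numbered 24 with no flank, 173 with a 50 kb flank and 105 with the permissive list, and 64 to 171 when leaving out 1 library. Channel genes with such a region numbered 17 with no flank and 62 with 50 kb, and 36 to 63 when leaving out 1 library. Genes with a promoter footprint numbered 6 to 26 when leaving out 1 library, and the shared footprints were 5 if 50% of each had to overlap. Among families, voltage-gated genes went from 3 to 5, two-pore from 1 to 2 and auxiliary from 1 to 3 with the permissive list. Of 52 alternative values, 29 were within 1.5 times of the value reported. No paired analysis was possible because there is 1 group. Replicate 3, with fewer peaks and a larger signal step, limits what can be seen in both libraries; weak promoters such as that of Kcna3 lie near its floor.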
